A study of Mus musculus with 58 samples.

Results

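The genes described here are 7 acute phase genes, Lcn2, Serpina3n, Lrg1, Fetub, Saa3, Hp and Cp, out of 18820 genes measured on 58 Affymetrix arrays of mouse muscle and heart. Every probe set whose only gene symbol was one of these names was taken, and each gene had exactly 1 probe set, so all 7 had a value on every array. The set was chosen by the large rises of Lcn2 and Serpina3n in tumour bearing mice. The contrast of T against C is therefore given below as a description without a test. The tests are of other contrasts, of which only T + WBV against C + WBV, alone or compared between tissues, takes its fold change from no T or C mouse. Its SE and p still use a spread estimated over all 4 groups of a tissue, T and C included. The members were also chosen with earlier results of these data known, so this contrast is not independent of their choice.

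The study asked whether whole-body vibration (WBV) training changes muscle wasting in mice with cancer cachexia. Male CD2F1 mice received C26 cells, a mouse colon carcinoma line, under the skin (T and T + WBV) or a sham injection of HBSS, a salt solution (C and C + WBV). Mice of the WBV groups stood on a vibrating plate for 15 min per day, every day from day 1, at 45 Hz and 1.0 g, and all mice were killed on day 19, so that C mice differ from T mice by the tumour cells and from C + WBV mice by the vibration. The arrays hold the extensor digitorum longus (EDL, a fast muscle) and the soleus (SOL, a slow muscle) of 23 mice (6 in each of C, C + WBV and T, and 5 in T + WBV) and the heart (HRT) of 12 of them, 3 in each group. Each replicate is 1 mouse, the model is 1 tumour line in 1 hybrid strain of 1 sex, and the replicate numbers do not match mice between groups.

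Acute phase proteins are blood proteins whose synthesis rises or falls in inflammation, mainly in the liver, in response to IL-6 and its relatives acting through STAT3, to IL-1 and TNF acting through NF-kB, and to glucocorticoids. C/EBP factors, themselves induced by these signals, add to the response. Skeletal muscle and heart can also transcribe several of these genes when the body is inflamed, and cachexia is accompanied by such a response.

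All values are log2 expression as deposited, so a difference of 1 is a doubling, and levels are compared between samples and not between genes. In bulk tissue, more cells of a type and more RNA per cell cannot be told apart. The tissue labels matched their defining genes. Summed on a linear scale over its 7 fast fibre markers, EDL of C mice read 40060 to 43450 against 13710 to 15020 in SOL and 156 to 169.9 in HRT, and the heart markers summed to 24430 to 27510 in HRT of C mice against at most 527.1 in EDL.

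Some arrays stood apart. The mouse T + WBV replicate 2 had a body mass of 100.9% at day 19, given in the labels as a share of the mean over the days at the start, whereas the other 10 tumour bearing mice had 75.9 to 91.0%, and it held the lowest level of Lcn2, Serpina3n and Lrg1 among the tumour bearing mice in all 3 tissues. Results that rest on this mouse are given with and without it. In SOL, T + WBV replicate 4 stood apart on the hepatocyte markers, which summed to 3258 there on a linear scale where the lowest and the median of its group were 261.2 and 411.8, through Apoa1 (11.24) and Apob (8.59), both named after their values were seen, while Alb, the albumin gene, read 5.49. Elsewhere Alb reached 7.90 in SOL of a T mouse and 8.22 in heart of a C + WBV mouse.

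The stretches just upstream of the start sites of the 3 members that moved most alike are shown because their levels were the most alike across the arrays. Each comes from the 250 bases before a RefSeq start site, on GRCm38.p6, as far as they lie outside the gene itself. The Lcn2 stretch is chr2:32387740-32387989 on the minus strand, the Serpina3n stretch is chr12:104406458-104406645 on the plus strand (188 bases, since the start site used lies inside the span of the gene), and the Lrg1 stretch is chr17:56121947-56122196 on the minus strand. Capitals mark every match, on either strand, to the patterns TTCNNNGAA (STAT type), TTGCNNAA (C/EBP type), GGG followed by any 3 bases and TTCC (NF-kB type) and ACANNNTGT (glucocorticoid receptor type).
Lcn2: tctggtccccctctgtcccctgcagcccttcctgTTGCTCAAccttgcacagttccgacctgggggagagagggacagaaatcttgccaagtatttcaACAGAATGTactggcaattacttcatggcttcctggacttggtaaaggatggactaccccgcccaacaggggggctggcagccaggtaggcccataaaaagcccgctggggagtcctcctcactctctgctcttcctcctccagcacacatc
Serpina3n: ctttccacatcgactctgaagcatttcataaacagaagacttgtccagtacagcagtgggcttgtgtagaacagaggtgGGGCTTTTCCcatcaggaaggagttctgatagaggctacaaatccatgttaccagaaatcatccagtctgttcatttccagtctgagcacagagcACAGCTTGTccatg
Lrg1: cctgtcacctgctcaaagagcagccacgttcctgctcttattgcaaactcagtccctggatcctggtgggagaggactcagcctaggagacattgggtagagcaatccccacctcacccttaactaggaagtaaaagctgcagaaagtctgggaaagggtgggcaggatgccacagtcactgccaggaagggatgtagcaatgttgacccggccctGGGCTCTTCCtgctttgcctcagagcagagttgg
The Lcn2 stretch held a C/EBP type and a glucocorticoid receptor type match, the Serpina3n stretch an NF-kB type and a glucocorticoid receptor type match, and the Lrg1 stretch an NF-kB type match. Among all 32851 RefSeq stretches of 250 bases, the STAT pattern was found in 7.02%, the C/EBP pattern in 9.56%, the NF-kB pattern in 4.65% and the glucocorticoid receptor pattern in 5.84%. No member held the STAT pattern in its stretch. Of the others, Fetub at its first start site held an NF-kB type match. Saa3 and Cp at its second start site held a C/EBP type match, but in 250 bases that lie wholly inside the span of the gene. Such matches are a description of letters, and no binding was measured. RefSeq entries were matched for 6 of the 7 members, with 8 start sites in all, and Hp was not matched.

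**Figure D1:**
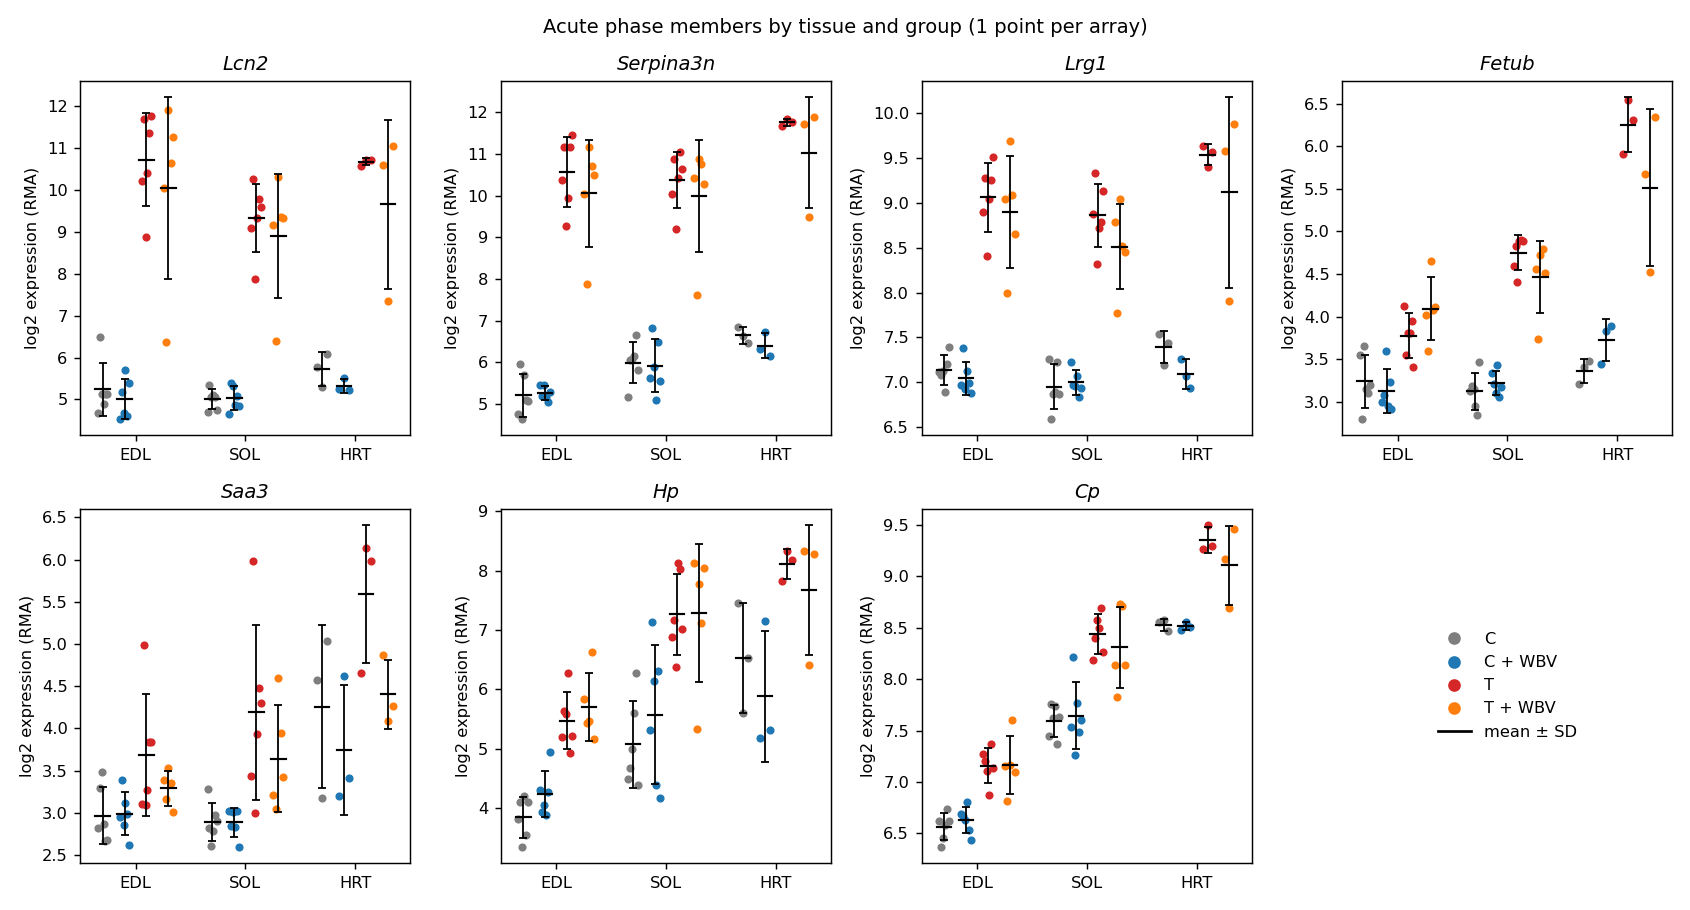
Level of each member on every array. The y axis is log2 expression, each point is 1 array, and the horizontal lines and bars are the mean and SD of each of the 4 groups in EDL, SOL and HRT. Lcn2 and Serpina3n lie between 4.53 and 6.86 in mice without a tumour and up to 11.91 in tumour bearing mice.

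Lcn2 encodes lipocalin 2, a secreted protein that binds bacterial iron carriers and is also stored in neutrophil granules (RefSeq gene at chr2:32384637-32387739, GRCm38.p6). In EDL, its level was 4.68, 5.13 and 6.49 (lowest, median, highest) in C mice and 4.53, 4.94 and 5.69 in C + WBV mice. In T mice it was 8.88, 10.89 and 11.77, and in the 5 T + WBV mice it was 10.06, 6.37, 11.91, 10.65 and 11.26. All tumour bearing mice lay above all mice of the matching sham group, although T + WBV replicate 2, at 6.37, lay just under the highest C mouse. In SOL, Lcn2 was 4.70, 5.06 and 5.35 in C, 4.65, 4.98 and 5.39 in C + WBV, and 7.88, 9.47 and 10.26 in T. The T + WBV mice read 9.18, 6.39, 10.31, 9.36 and 9.33 in SOL, again without overlap with C + WBV. In HRT the 3 C mice read 5.78, 5.30 and 6.09, the C + WBV mice 5.24, 5.51 and 5.22, the T mice 10.58, 10.73 and 10.72 and the T + WBV mice 10.59, 7.35 and 11.05. The T hearts lay close together (SD 0.08, n = 3) and the T + WBV hearts far apart (SD 2.02, n = 3), and neither overlapped with its sham group.

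Serpina3n encodes a secreted inhibitor of serine proteases, the mouse counterpart of human alpha-1-antichymotrypsin (RefSeq gene at chr12:104406646-104414334). It belongs to a cluster of very similar Serpina3 genes, and since of 10 other Serpina3 genes looked for only Serpina3a and Serpina3b had a probe set of their own, probes shared with the rest of the cluster cannot be told apart from Serpina3n. In EDL it read 4.64, 5.09 and 5.97 in C, 5.04, 5.24 and 5.46 in C + WBV and 9.27, 10.77 and 11.45 in T. The T + WBV mice read 10.03, 7.89, 11.17, 10.72 and 10.48. In SOL it read 5.17, 6.08 and 6.66 in C, 5.10, 5.76 and 6.82 in C + WBV and 9.20, 10.53 and 11.04 in T, with 10.43, 7.62, 10.87, 10.76 and 10.26 in T + WBV. Every tumour bearing muscle lay above every muscle of mice without a tumour. The hearts of C mice read 6.86, 6.62 and 6.46, those of C + WBV mice 6.33, 6.73 and 6.15, those of T mice 11.66, 11.84 and 11.76 and those of T + WBV mice 11.71, 9.49 and 11.88, with no overlap.

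Lrg1 encodes a secreted leucine-rich glycoprotein that modulates TGF-beta signalling in blood vessels (RefSeq gene at chr17:56119678-56121946). Its medians in C mice were 7.12 in EDL, 6.88 in SOL and 7.44 in HRT. The T mice read 8.41, 9.15 and 9.51 in EDL and 8.32, 8.83 and 9.33 in SOL, and the T + WBV mice 9.04, 8.00, 9.69, 9.08 and 8.65 in EDL and 8.78, 7.77, 9.04, 8.52 and 8.45 in SOL. All of these lay above the highest mouse without a tumour, which was at 7.40 in EDL and 7.26 in SOL. In HRT the T mice read 9.63, 9.40 and 9.57 and the T + WBV mice 9.57, 7.90 and 9.87, against at most 7.54 in C and 7.27 in C + WBV.

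Fetub encodes fetuin B, a liver-made inhibitor of the egg protease ovastacin, and lies beside its relative Ahsg on chromosome 16 (chr16:22918382-22939768). In EDL its level ran from 2.80 to 3.65 in mice without a tumour, from 3.40 to 4.12 in T and from 3.60 to 4.65 in T + WBV. In SOL it ran from 2.84 to 3.47 without a tumour, from 4.40 to 4.90 in T and from 3.73 to 4.79 in T + WBV, and in HRT from 3.21 to 3.89, from 5.91 to 6.54 and from 4.52 to 6.34. The groups with and without a tumour did not overlap in SOL and HRT, and in EDL the T mice overlapped with C.

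Hp encodes haptoglobin, which binds free haemoglobin, and Cp encodes ceruloplasmin, a copper-carrying ferroxidase. Hp in EDL ran from 3.35 to 4.20 in C, from 3.89 to 4.94 in C + WBV, from 4.92 to 6.28 in T and from 5.16 to 6.64 in T + WBV. In SOL it was widely spread in mice without a tumour, from 4.39 to 6.28 in C and from 4.17 to 7.14 in C + WBV, and ran from 6.38 to 8.13 in T and from 5.33 to 8.13 in T + WBV. In HRT it ran from 5.61 to 7.46 in C, from 5.17 to 7.15 in C + WBV, from 7.83 to 8.34 in T and from 6.40 to 8.33 in T + WBV, so that T + WBV overlapped with C + WBV in SOL and HRT. Cp had the smallest shifts of the members that were called in muscle. Its level ran from 6.37 to 6.80 in EDL without a tumour and from 6.81 to 7.60 with one, from 7.26 to 8.21 and from 7.83 to 8.73 in SOL, and from 8.46 to 8.57 and from 8.69 to 9.50 in HRT.

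Saa3 encodes a serum amyloid A that in mice is made largely outside the liver, by macrophages and fat cells. In EDL it ran from 2.67 to 3.48 in C, from 2.63 to 3.39 in C + WBV, from 3.09 to 4.99 in T and from 3.01 to 3.53 in T + WBV. In SOL it ran from 2.61 to 3.28 in C, from 2.60 to 3.03 in C + WBV, from 3.00 to 5.99 in T and from 3.05 to 4.60 in T + WBV. In HRT it ran from 3.18 to 5.03 in C, from 3.20 to 4.62 in C + WBV, from 4.65 to 6.14 in T and from 4.08 to 4.87 in T + WBV. T replicate 2 was the highest mouse of both muscles.

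For T against C, the contrast that picked the genes, the log2 fold change in EDL, SOL and HRT was 5.49 (SE 0.62), 4.32 (SE 0.42) and 4.95 (SE 0.64) for Lcn2 and 5.35 (SE 0.40), 4.38 (SE 0.42) and 5.11 (SE 0.43) for Serpina3n. Lrg1 differed by 1.93, 1.91 and 2.14, Hp by 1.62, 2.19 and 1.58, Saa3 by 0.72, 1.30 and 1.33, and Cp by 0.59, 0.84 and 0.82. Fetub had the widest range between tissues, with 0.53 in EDL, 1.63 in SOL and 2.89 in HRT.

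In the vibrated mice, which T against C does not hold, the members were again higher with a tumour. The members were chosen with earlier results of these data known, so this contrast is no independent test of Lcn2 and Serpina3n. The counts and medians below include both genes. Called here means an adjusted p under 0.01 from limma, where p was adjusted by Benjamini-Hochberg across all 18820 genes. In T + WBV against C + WBV, 6 of 7 members rose in EDL, 5 in SOL and 4 in HRT, and none fell, while 5.27%, 1.94% and 1.01% of all genes were called higher (11.9%, 3.61% and 1.49% called in either direction). The median log2 fold change of the 7 members was 1.48, 1.51 and 1.79, and that of all genes was -0.03, -0.02 and -0.01. The groups did not overlap for 6 members in EDL, 5 in SOL and 5 in HRT, against 4.08%, 2.08% and 9.99% of all genes. Some gaps between the lowest T + WBV and the highest C + WBV mouse were narrow. They were 3.600 against 3.595 for Fetub and 6.812 against 6.804 for Cp in EDL, and 3.05 against 3.03 for Saa3 in SOL. The members without overlap in SOL include Saa3, which was not called, and leave out Cp, which was called.

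Lcn2 rose 32.8-fold in EDL (log2 fold change 5.04, SE 0.65, limma adjusted p = 1.387e-05), which was the largest rise of all genes there. Serpina3n came next in EDL with 4.79 (SE 0.42, limma adjusted p = 7.621e-08), a 27.65-fold rise. In SOL and HRT the order was the other way round, and Serpina3n had the largest fold change of all genes, 4.07 in SOL (SE 0.44, limma adjusted p = 8.284e-06) and 4.62 in HRT (SE 0.43, limma adjusted p = 7.636e-05). Lcn2 ranked 3 in SOL with 3.89 (SE 0.44, limma adjusted p = 9.151e-06) and 2 in HRT with 4.34 (SE 0.64, limma adjusted p = 0.001913). The difference between both genes was not tested, as levels of different probe sets are not compared.

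Lrg1 rose in all tissues, by 1.85 in EDL (SE 0.20), 1.51 in SOL (SE 0.18) and 2.02 in HRT (SE 0.34), with limma adjusted p of 1.889e-06, 1.333e-05 and 0.004726. Fetub also rose in all, by 0.97 (SE 0.17), 1.24 (SE 0.15) and 1.79 (SE 0.33), with limma adjusted p of 0.0003937, 1.971e-05 and 0.007437. Hp rose in EDL by 1.48 (SE 0.24, limma adjusted p = 0.0002347). Its differences of 1.71 in SOL (SE 0.51, limma adjusted p = 0.03467) and 1.79 in HRT (SE 0.57, limma adjusted p = 0.0787) did not pass the threshold. Cp rose by 0.54 in EDL (SE 0.11, limma adjusted p = 0.001221) and by 0.67 in SOL (SE 0.16, limma adjusted p = 0.008166), and its 0.59 in HRT (SE 0.14, limma adjusted p = 0.02297) was not called although the groups did not overlap. Saa3 was called in no tissue, with 0.30 in EDL (SE 0.24), 0.76 in SOL (SE 0.34) and 0.66 in HRT (SE 0.48).

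Without T + WBV replicate 2 the fold changes were larger. Lcn2 then differed by 5.96, 4.52 and 5.50 in EDL, SOL and HRT, and Serpina3n by 5.33, 4.66 and 5.39. Hp then rose by 2.19 in SOL (SE 0.47, limma adjusted p = 0.0024) and by 2.43 in HRT (SE 0.51, limma adjusted p = 0.004379), and Cp by 0.80 in HRT (SE 0.09, limma adjusted p = 3.249e-05), so that 6 members were called in each tissue. The heart calls rest on 3 mice per group, and leaving out 1 mouse at a time gave 1 to 6 called members, with 1 called without C + WBV replicate 1, C + WBV replicate 3 or T + WBV replicate 1. In SOL, the call of Cp was lost in 9 of the 11 fits that left out 1 mouse. The number of all genes called also moved widely in such fits, as given below under the processing. These changes in count are therefore not read as a result about the members.

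**Figure D2:**
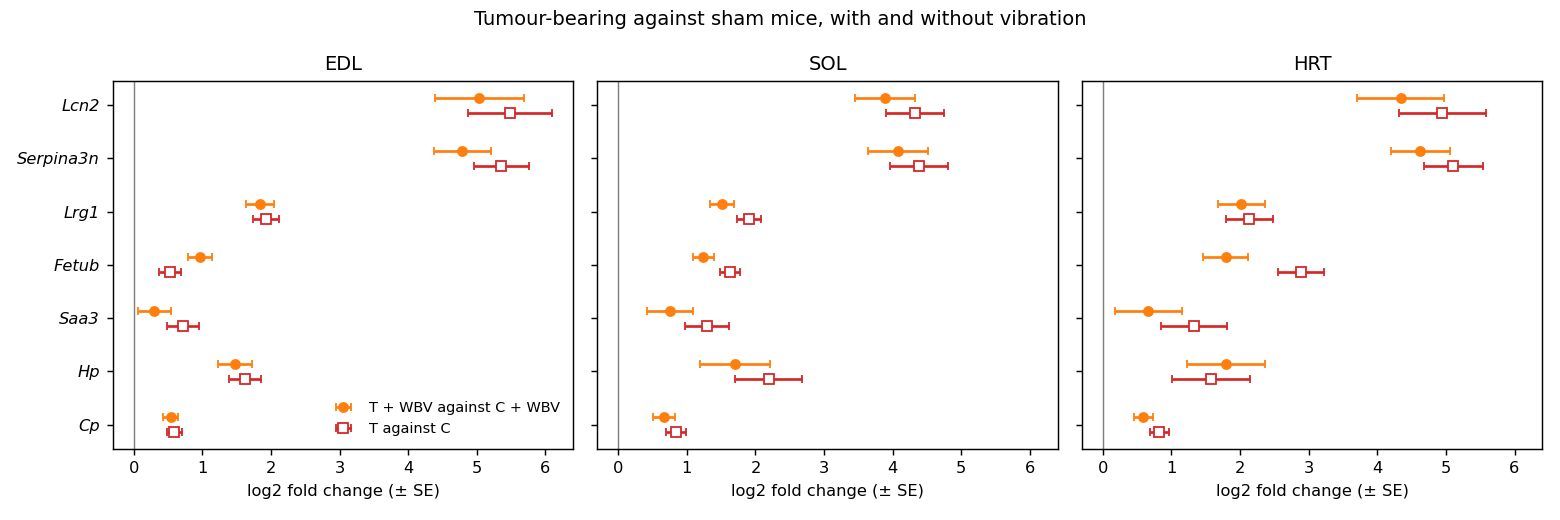
Log2 fold change of the members with a tumour, among vibrated mice (filled circles, T + WBV against C + WBV) and without vibration (open squares, T against C). Bars are the SE of the limma fit, and the squares are the contrast on which the genes were picked. Lcn2 and Serpina3n lie at 3.89 or more in every tissue, and all 7 members lie right of 0.

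Some markers of neutrophils rose in the same contrast as the members. Of 14 measured neutrophil markers, 4 rose in EDL, 5 in SOL and 5 in HRT in T + WBV against C + WBV, with medians of 0.53, 0.46 and 0.87. The others were not called, and 12, 11 and 12 of the 14 lay above 0. The share of all genes called higher was 5.27%, 1.94% and 1.01%. S100a8 and S100a9, which encode the calprotectin of neutrophils and monocytes, rose in EDL (1.73 and 1.40), SOL (1.48 and 1.68) and HRT (2.21 and 2.50). Cxcr2, a chemokine receptor of neutrophils, rose by 1.11, 1.28 and 2.57, and Retnlg by 1.14, 1.43 and 2.36. The summed linear level of the list was 133.7 to 155.6 in C + WBV and 190.1 to 382 in T + WBV in EDL, 139 to 152.7 and 197.3 to 349.1 in SOL, and 165.6 to 180.3 and 354.2 to 649.3 in HRT, without overlap. In a fit chosen after seeing the data, with the mean of these markers as a term, 1 member was called in EDL and 0 in SOL and HRT. Serpina3n was the one called, with 3.17 in EDL (SE 0.46, limma adjusted p = 0.0009073), where 18 of all genes were called, and 0 of all genes were called in SOL and HRT. Lcn2 was at 2.67, 1.91 and 1.23 with that term and Serpina3n at 2.43 in SOL and 2.86 in HRT. The marker level and the tumour groups moved together, and the part of neutrophils in the levels of the members was not tested.

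Macrophage, fat and liver markers were counted in the same way, beside the same 5.27%, 1.94% and 1.01% of all genes called higher in EDL, SOL and HRT. These shares belong to the fit without a marker term. With the macrophage term, and with the hepatocyte term in SOL, fewer of all genes were called, as given below under the processing. Nothing particular to the members is read from their counts with a term. Of 14 macrophage markers, 2 rose in EDL, 2 in SOL and 6 in HRT, among them Cd163, the scavenger receptor for haptoglobin with haemoglobin (0.91, 0.97 and 1.82), Mrc1 (1.41 in HRT) and C1qa (1.16 in HRT), with list medians of 0.41, 0.49 and 0.65 and list sums of 682.3 to 874.3 in C + WBV and 833.8 to 1296 in T + WBV in EDL. The sums were 808.4 to 1407 and 1085 to 1785 in SOL and 2005 to 2805 and 3357 to 4471 in HRT. With the macrophage mean as a term, again chosen after seeing the data, 5 members were called in EDL and 4 in SOL. In HRT 0 were called, where no gene at all was called with this term. Of 13 hepatocyte markers, 0 rose in either muscle and Ahsg alone in HRT, with medians of 0.14 in EDL, 0.44 in SOL and -0.17 in HRT and 12 of the 13 above 0 in SOL. Alb, at means of 3.45 to 3.69 in EDL of the vibrated mice, was not called. With the hepatocyte mean as a term, 6, 4 and 4 members were called, so that Lcn2 at 5.12, 3.67 and 4.36 was called in all tissues. Of 10 adipocyte markers, only Plin4, a lipid droplet protein that muscle also makes, was called, and it rose in EDL (1.22) and SOL (0.80). The list medians were 0.11 in EDL, -0.04 in SOL and -0.26 in HRT, with 7, 4 and 3 of the 10 above 0. With the adipocyte mean as a term 6, 6 and 3 members were called.

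No difference by vibration was detected for any member. In T + WBV against T, 0 of 7 members and 0% of all genes were called in each tissue, and the smallest adjusted p of a member was 0.61. Lcn2 differed by -0.67 in EDL (SE 0.65), -0.42 in SOL (SE 0.44) and -1.01 in HRT (SE 0.64), and Serpina3n by -0.51 (SE 0.42), -0.38 (SE 0.44) and -0.73 (SE 0.43). These signs turned when T + WBV replicate 2 was left out, with Lcn2 at 0.25, 0.21 and 0.15 and Serpina3n at 0.04, 0.21 and 0.04. The lowest of all 18820 fold changes in HRT was that of Saa3, at -1.19 (SE 0.48, limma adjusted p = 0.61), with T hearts at 4.65, 6.14 and 5.99 and T + WBV hearts at 4.87, 4.08 and 4.27, which overlapped. In C + WBV against C, 0 of 7 members and 0% of all genes were called, and Lcn2 differed by -0.22 in EDL (SE 0.62), 0.02 in SOL (SE 0.42) and -0.40 in HRT (SE 0.64). Nor was the interaction of tumour and vibration called for any member or any gene (0%), with Lcn2 at -0.45 (SE 0.89), -0.44 (SE 0.61) and -0.61 (SE 0.90) and Fetub at -1.10 in HRT (SE 0.47, limma adjusted p = 0.8317). Missing the threshold does not show that vibration left the members as they were.

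The levels of the members without tumour or vibration were compared between the tissues of the same mice. Of all genes, 13.2% were called between SOL and EDL (7.17% higher in SOL), 28.6% between HRT and EDL (18% higher in HRT) and 19% between HRT and SOL (11.5% higher in HRT), and 2, 3 and 2 of 7 members were called, counts from which nothing particular to the members is read. In C mice, Cp was higher in SOL than in EDL by 1.03 (SE 0.12, limma adjusted p = 2.061e-07), higher in HRT than in EDL by 2.01 (SE 0.11, limma adjusted p = 7.557e-09) and higher in HRT than in SOL by 0.95 (SE 0.10, limma adjusted p = 1.757e-05). Its order of levels was thus HRT, SOL and EDL, with each step past the threshold. Serpina3n was higher in SOL by 0.78 (SE 0.20, limma adjusted p = 0.005054) and in HRT by 1.41 (SE 0.25, limma adjusted p = 0.0005133) than in EDL, and its difference between HRT and SOL, 0.37 (SE 0.18), was not called. Hp was higher in HRT than in EDL by 2.87 (SE 0.43, limma adjusted p = 0.0001202), with SOL between them and neither step called (1.22 against EDL, limma adjusted p = 0.0304, and 1.22 below HRT, limma adjusted p = 0.07794). Saa3 was higher in HRT than in SOL by 1.46 (SE 0.33, limma adjusted p = 0.004841). Lcn2, Lrg1 and Fetub were called in none of these contrasts, with EDL and SOL differing by -0.23, -0.18 and -0.12.

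The tumour effect itself was compared between tissues of the vibrated mice. It was not called for any member, where 0.0638% of all genes were called between SOL and EDL and 0% between HRT and EDL. The largest difference between the muscles was that of Lcn2, whose effect was smaller in SOL by 1.15 on the log2 scale (difference -1.15, SE 0.31, limma adjusted p = 0.09555), and -1.44 without T + WBV replicate 2 (SE 0.28, limma adjusted p = 0.007079). Serpina3n differed by -0.72 (SE 0.29, limma adjusted p = 0.3633). Between HRT and EDL, Fetub differed most, by 1.14 (SE 0.35, limma adjusted p = 0.153). Between HRT and SOL, where 0% of all genes were called, Lcn2 differed by 1.12 (SE 0.24, limma adjusted p = 0.1624) and Serpina3n by 1.00 (SE 0.26, limma adjusted p = 0.2201).

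Among the 11 tumour bearing mice, Lcn2, Serpina3n and Lrg1 were lower in mice with a higher body mass at day 19. The paper takes carcass mass to be body mass without the tumour, so body mass includes the tumour. With carcass mass in its place, fewer members were called in SOL and fewer genes in both muscles, as given below under the processing. The level of Lcn2 fell by 2.07 per 10 percentage points of body mass in EDL (SE 0.21, limma adjusted p = 0.0001875) and by 1.43 in SOL (SE 0.15, limma adjusted p = 0.0004114). The slope of Serpina3n was -1.30 in EDL (SE 0.16, limma adjusted p = 0.0005943) and -1.21 in SOL (SE 0.17, limma adjusted p = 0.001992), and that of Lrg1 was -0.59 (SE 0.09, limma adjusted p = 0.002026) and -0.52 (SE 0.09, limma adjusted p = 0.004706). The slopes of Fetub, Saa3, Hp and Cp were not called in either muscle, and Fetub in SOL was the closest to the threshold (-0.42, SE 0.08, limma adjusted p = 0.01185). The 3 called members compare with 1.01% of all genes in EDL and 0.425% in SOL called lower with higher body mass (2.54% and 0.988% in either direction).

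The calls of these slopes rested on the mice with the highest body mass, while the slopes themselves stayed below 0 without them. For Lcn2 in EDL, Pearson's r was -0.932 (permutation p = 0.00042) and Spearman's rho -0.827 (permutation p = 0.00294). Without T + WBV replicate 2 and T replicate 3, whose body mass lay farthest from the median, r was -0.619 (permutation p = 0.07176). In SOL, r of Lcn2 went from -0.931 (permutation p = 0.00045, rho -0.773, permutation p = 0.00729) to -0.590. Serpina3n went from -0.911 (permutation p = 0.00061, rho -0.718, permutation p = 0.01584) to -0.569 in EDL and from -0.885 (permutation p = 0.00308, rho -0.582, permutation p = 0.06589) to -0.222 in SOL. Lrg1 went from -0.884 (permutation p = 0.00042, rho -0.818, permutation p = 0.0034) to -0.610 in EDL and from -0.881 (permutation p = 0.00062, rho -0.864, permutation p = 0.00128) to -0.600 in SOL. Pearson's r of these members had permutation p of 0.07176 or more without those mice, whereas rho of Lrg1 in SOL was then -0.750 (permutation p = 0.02549), and r of Lrg1 in SOL among the 6 T mice alone was -0.861 (exact permutation p = 0.01528). Saa3 in SOL, whose slope was not called, had rho -0.827 (permutation p = 0.00278) and r -0.644 (permutation p = 0.0405) over the 11 mice, and rho -0.700 (permutation p = 0.04325) without those mice.

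No member slope was called when T + WBV replicate 2 alone was left out, and the slopes of Lrg1 then stayed at -0.63 in EDL (SE 0.16, limma adjusted p = 0.08061) and -0.49 in SOL (SE 0.15, limma adjusted p = 0.2539). Those of Lcn2 were -1.64 in EDL (SE 0.33, limma adjusted p = 0.03588) and -1.18 in SOL (SE 0.24, limma adjusted p = 0.09805). Those of Serpina3n were -1.13 in EDL (SE 0.26, limma adjusted p = 0.06702) and -0.75 in SOL (SE 0.24, limma adjusted p = 0.3034). Without both mice the slope of Serpina3n in SOL was -0.20 (SE 0.27) and that of Lrg1 in SOL -0.47 (SE 0.21). There were 14 such relations, 7 members in 2 muscles, and the adjusted p of the slopes are over all genes.

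**Figure D3:**
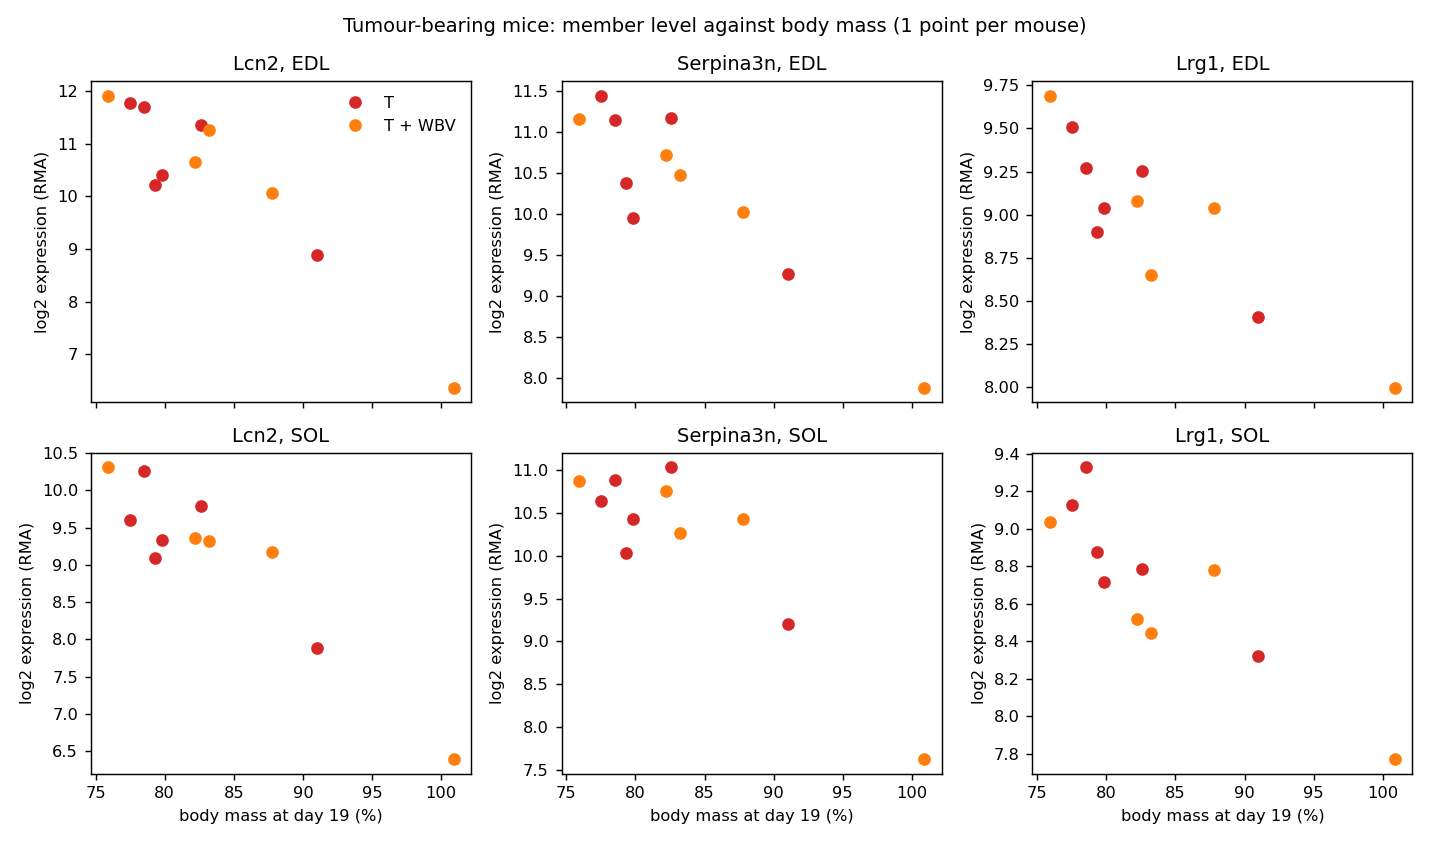
Level of Lcn2, Serpina3n and Lrg1 (y axis, log2 expression) against body mass at day 19 (x axis, %) in the 6 T and 5 T + WBV mice, EDL above and SOL below. T + WBV replicate 2, at 100.9%, is the lowest point of every panel, and T replicate 3, at 91.0%, is the next lowest.

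By Pearson's r over the 58 arrays, the genes whose pattern was most like that of Lcn2 and Serpina3n were each other first. Likeness was Pearson's r of the log2 level minus the mean of C in its tissue, and the points share mice and tissues, so it is given as a description. The arrays include the T and C mice that picked both genes for their rises, so a high r was partly set by that choice. By Spearman's rho (0.907), Lcn2 ranked 2nd for Serpina3n. On tumour bearing arrays alone both again ranked first for each other (r 0.966). For Lcn2, Lrg1 then ranked 11th, Fkbp5 7th, Mt1 24th and Mt2 5th. For Serpina3n, Osmr then ranked 5th, Tmem176b 19th, Tmem176a 29th and Gda 4th. Over all 58 arrays, r of Lcn2 was 0.984 with Serpina3n, 0.967 with Lrg1, 0.966 with Fkbp5, 0.962 with Mt1 and 0.962 with Mt2. Fkbp5 encodes a co-chaperone of steroid receptors, and Mt1 and Mt2 encode metallothioneins. Over the same 58 arrays, r of Serpina3n was 0.984 with Lcn2, 0.980 with Osmr, 0.973 with Tmem176b, 0.971 with Tmem176a and 0.965 with Gda. Osmr encodes the receptor of oncostatin M and Gda a guanine deaminase. Other members ranked lower, with Cp 276th, Hp 742nd, Fetub 1080th and Saa3 1521st of all genes for Lcn2. In T + WBV against C + WBV, Mt2 rose by 4.06 in EDL, 2.72 in SOL and 3.47 in HRT, and Osmr by 1.76, 1.52 and 1.53.

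Genes of the signals that induce acute phase proteins changed in the same contrast. Of 26 measured members of the list, 13 rose and 2 fell in EDL, 10 rose in SOL and 7 rose in HRT, with medians of 0.39, 0.37 and 0.30. The share of all genes called higher was 5.27%, 1.94% and 1.01%, and 11.9% were called in either direction in EDL. Cebpd, a C/EBP factor induced by IL-6 and glucocorticoids, rose by 2.75, 2.04 and 1.38, and Osmr as given above. Il6ra, which encodes the IL-6 receptor, rose by 2.27 in EDL and 1.33 in SOL and read 0.57 in HRT (limma adjusted p = 0.1183). The genes that fell in EDL, Lifr (-0.44) and Jak1 (-0.33), are named after their values were seen, and so is Il6, whose differences of 0.09, 0.04 and -0.09 were not called.

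Other acute phase genes of the liver were counted in T + WBV against C + WBV. Of 22 that rise in liver, 4 rose in EDL, 4 in SOL and 3 in HRT, and 0 fell, with medians of 0.25, 0.16 and 0.24, where 5.27%, 1.94% and 1.01% of all genes were called higher. Lbp, which encodes the lipopolysaccharide binding protein, rose by 1.18, 1.57 and 1.48, and Itih4, an inter-alpha-trypsin inhibitor chain, by 0.76, 0.79 and 1.96. Serping1, which encodes the C1 inhibitor, rose by 0.90 in HRT. The remaining calls were Cfb (0.59) and Steap4 (0.67) in EDL and Cd14 (0.76) and Itih3 (0.62) in SOL, named after their values were seen. Of 10 genes that fall in liver, 0 fell in any tissue. Of 14 measured relatives of the members, Ahsg alone was called, and Saa2, in the same family as Saa3 and named after its values were seen, was not (0.31, 0.56 and 0.97).

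Of 17 measured receptors and partners, 3 rose and 1 fell in EDL, 1 rose in SOL and 2 rose in HRT. The share of all genes called higher was 5.27%, 1.94% and 1.01%, and 11.9% were called in either direction in EDL. Cd163 rose in each, Tlr4, a receptor of innate immunity, rose by 1.13 in EDL, and Lrp1, an endocytic receptor, rose by 1.03 in HRT. Slc22a17, a receptor described for lipocalin 2, fell by 0.46 in EDL, and Tgfbr1 rose by 0.64, both named after their values were seen.

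Hp was also set beside the adipocyte markers, a comparison chosen after its wide spread in SOL had been seen. Over the 12 mice without a tumour, Hp in SOL was higher the higher the mean log2 level of the 10 adipocyte markers (Pearson's r 0.899, permutation p = 2e-05, adjusted over 3 tissues 6e-05, Spearman's rho 0.860, permutation p = 0.00062). Without the arrays farthest from the median r was 0.834, and within C and within C + WBV, 6 mice each, it was 0.866 (exact permutation p = 0.03194) and 0.925 (exact permutation p = 0.008333), although rho within C was 0.486 (exact permutation p = 0.3556). In HRT of 6 such mice r was 0.977 (exact permutation p = 0.004167), and in EDL of 12 it was 0.362 (permutation p = 0.2442, rho 0.245). With the adipocyte mean as a term, the rise of Hp in SOL in T + WBV against C + WBV was 1.78 (SE 0.36, limma adjusted p = 0.002886). Whether fat in the samples sets the level of Hp was not tested.

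**Figure D4:**
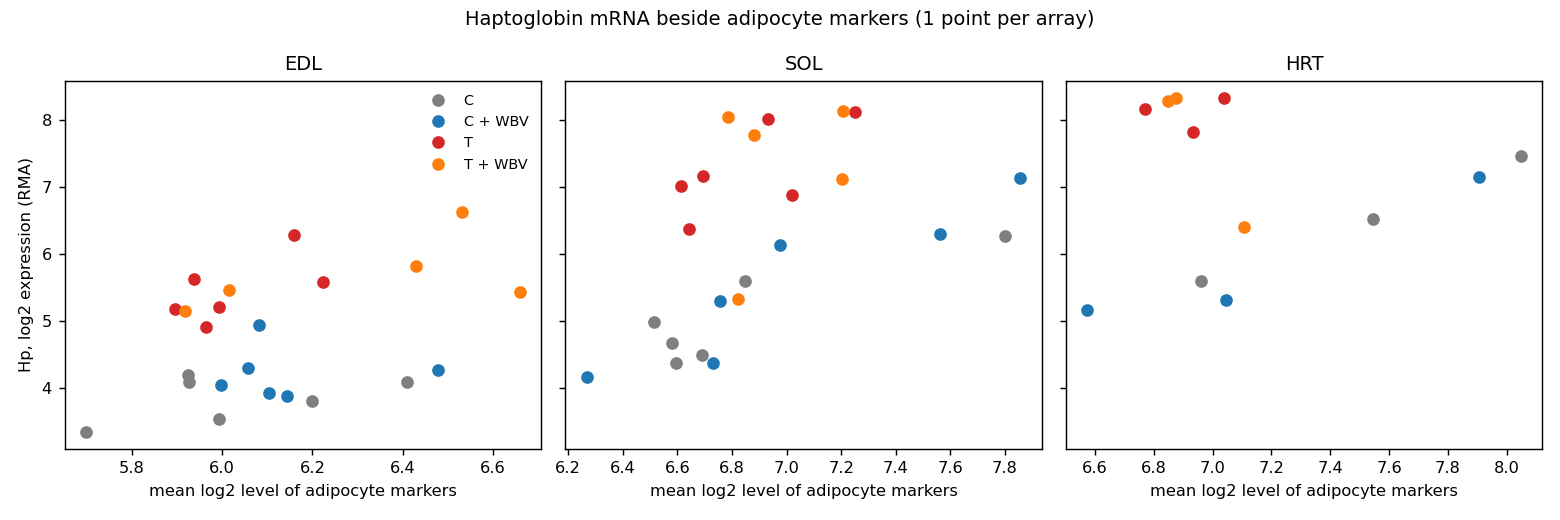
Hp (y axis, log2 expression) against the mean log2 level of the 10 measured adipocyte markers (x axis) on every array of EDL, SOL and HRT, coloured by group. In SOL the points of C and C + WBV run from 4.17 to 7.14 along the markers, and the T points lie between 6.38 and 8.13. The T + WBV points of SOL lie between 5.33 and 8.13 and overlap with those of C + WBV.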

How the data were processed

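Expression was measured with Affymetrix mouse gene arrays in EDL, SOL and HRT. The deposited unit is log2 expression, which the authors computed by RMA (background correction, quantile normalization and summary of the probes of each probe set). For the RMA version and genome build, nothing is given in the sources used here. The table uses the transcript clusters of the array, whereas the methods describe a custom gene definition. RMA gives no detection call, and the number of arrays limits the precision.

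Of 35556 probe sets, 21218 had 1 symbol, 1881 several and 12457 none. Those with 1 symbol were averaged into 18820 genes. limma 3.58.1 in R 4.3.3 fitted the 4 groups of each tissue with a trended variance prior. Contrasts between tissues used within-mouse differences. Benjamini-Hochberg adjusted p-values cover all genes and a gene was called under 0.01. Correlations were computed with scipy 1.17.1. Their two-sided permutation tests were run in numpy 2.4.6, with 100000 resamples for 10 or more values and all orders otherwise. The fits were tested on simulated data.

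The members, gene lists and tests were chosen with earlier results of these data known. The text names all members, up to 3 genes of each list with the largest called change in T + WBV against C + WBV, S100a8, S100a9, Alb, and the 5 genes most like Lcn2 and Serpina3n. Other genes were named after their values were seen: Il6, Saa2, Lifr, Jak1, Cfb, Steap4, Cd14, Itih3, Slc22a17, Tgfbr1, Apoa1 and Apob. Other variance priors, sample choices, normalizations, filters, a covariate for a suffix in the array descriptions, the replicate number as a block, and leaving out each mouse were tried. Terms for markers were added after seeing the data. The replicate numbers do not pair mice between groups, and the hearts are numbered on their own. T + WBV replicate 2 is the same mouse in all tissues.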

Additional observations from a re-analysis of the deposited data

Results flagged for a closer look

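Of 56 sets of samples examined for a sample far from the rest, which are each member in each group of 5 or 6 mice, 4 held one, where chance gives about 1 in 20. The count is not far from that share, and nothing is read from it. In SOL, T + WBV replicate 2 was far below the other T + WBV mice for Lcn2 (6.39, the nearest mouse at 9.18), Serpina3n (7.62, the nearest at 10.26) and Fetub (3.73, the nearest at 4.51). These cases come from the same array and are not separate events, and Lcn2 there only just passed the limit. The body mass of this mouse was 100.9% at day 19. In EDL, C replicate 2 was far above the other C mice for Lcn2 (6.49, the nearest at 5.13), and the same muscle held the highest Serpina3n of the C group (5.97). Groups of 3 hearts were not examined in this way.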

How the results depend on the processing

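Counts are of members called, with the value as reported first. With the replicate number as a block, 6 members were called in EDL, 4 in SOL and 4 in HRT in T + WBV against C + WBV (6, 5 and 4 without it) and 0 in the contrasts by vibration, and of all genes 1725, 479 and 225. Mice of the same number did not deviate together (median r 0.01, 0.03 and -0.00 in EDL, SOL and HRT), so the block is no pairing. In HRT, T + WBV against C + WBV gave 4 called, 2 with one prior variance, 1 with only the groups compared, and 0 with the macrophage or the neutrophil term. The neutrophil term gave 1 in EDL and 0 in SOL. Leaving out 1 mouse gave 6 to 6 in EDL. It gave 4 to 6 in SOL, and in HRT 1 to 6. SOL against EDL in C gave 2, 1 with all arrays in 1 fit and 1 to 2 without 1 mouse, HRT against SOL 1 to 2 and HRT against EDL 3 to 4. The tumour effect in SOL against EDL gave 0 to 1. The slope on body mass gave 3 in EDL and SOL, 0 in T mice only, 0 without the 2 farthest mice, 1 with carcass mass in SOL, and 0 to 3 without 1 mouse. Over all genes, T + WBV against C + WBV gave 2235 in EDL (1487 with only the groups compared, 765 with the macrophage and 18 with the neutrophil term, 1169 to 3318 without 1 mouse), 679 in SOL (1389 with all arrays in 1 fit, 370 with a covariate for the suffix, 150 with only the groups compared, 322 with the hepatocyte, 241 with the macrophage and 0 with the neutrophil term, 200 to 1454 without 1 mouse) and 280 in HRT (125 with one prior variance, 43 with only the groups compared, 0 with either term, 53 to 1625 without 1 mouse). The slope over all genes gave 478 in EDL (194 with carcass mass, 220 with the group as a term, 5 to 577 without 1 mouse) and 186 in SOL (67, 63, 121 with one prior variance, 0 to 219), and 0 in T mice only or without the 2 farthest mice. With all arrays in 1 fit, T + WBV against T gave 7 genes in HRT (0 otherwise), and the tumour effect of vibrated mice gave 143 in HRT against EDL (0 otherwise) and 28 in SOL against EDL (12 otherwise). No called value turned its direction. Of the values recomputed for members that were called, with the slopes on body mass left out, 500 kept their side of the threshold and 56 lost it. With the slopes included, 85 lost it. The causes were not tested. RMA values give no signal over background, so dim members such as Saa3 and Fetub have no detection limit.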

Other observations

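Ahsg, which encodes fetuin A and lies next to Fetub on chromosome 16 (Ahsg at chr16:22892015-22899451, Fetub at chr16:22918382-22939768, GRCm38.p6), was called in HRT alone. Its log2 level in heart was 6.52 to 6.71 in C, 6.19 to 6.64 in C + WBV, 8.85 to 9.10 in T and 7.48 to 9.26 in T + WBV. In T + WBV against C + WBV it rose by 2.09 in HRT (SE 0.30, limma adjusted p = 0.001859), and its differences of 0.21 in EDL and 0.55 in SOL were not called. Ahsg is known as a protein whose liver synthesis falls in the acute phase.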
